A study of Arabidopsis thaliana with 15 samples.

Results

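Transcript levels in leaves of the Arabidopsis thaliana mutant uvr8-1 were compared with those of wildtype leaves after both had been exposed to UV-B. The comparison rests on 6 of the 15 arrays of the series, the 3 uvr8-1 and the 3 wildtype arrays made under UV-B, chosen by their labels. All plants were of the accession Landsberg erecta and were raised on compost for 3 weeks at 21 °C, lit without a dark period by white fluorescent tubes (25 µmol m-2 s-1). Those of the UV-B groups were afterwards given UV-B at 3 µmol m-2 s-1 for 4 h. The series also holds 3 arrays each of wildtype and uvr8-1 kept in white light and of hy5-1 under UV-B, which also enter the estimate of the spread behind every test and serve below for context. Each array is labelled as a biological replicate, and uvr8-1 is 1 mutant allele, so a difference between the genotypes cannot be told apart from another difference between these plant lines.

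UVR8 is the photoreceptor with which plants perceive UV-B. On absorbing UV-B the protein changes from a dimer to a monomer, binds the ubiquitin ligase COP1 and so favours the transcription factor HY5 and its homologue HYH. Known targets of this pathway are the genes of flavonoid and hydroxycinnamate synthesis, whose products absorb UV-B in the epidermis. UV-B also acts through damage and stress responses that do not need UVR8.

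Each array gave a log2 expression value for 22746 probe sets, and array medians lay between 4.31 and 4.40. The annotation paired 13513 probe sets with 1 gene, which gave 13355 genes. It paired UVR8, COP1, HY5 and CHS, the first enzyme of flavonoid synthesis, with no probe set of their own, and they are not analysed here. The mutated gene could therefore not be used to check the labels. The annotation left 8730 probe sets without a gene. A gene described below as not measured may therefore still have a probe set on the array. The index of 3' against 5' signal of the control transcripts, a sign of RNA quality, was 1.93 ± 0.02 in uvr8-1 and 1.88 ± 0.10 in wildtype under UV-B (SD, n = 3, exact permutation p = 0.7, with 0.1 the smallest possible). Of the uvr8-1 UV-B arrays, replicate 1 stood furthest from the others, with a Pearson r of 0.972 and 0.976 over probe sets against 0.991 between replicates 2 and 3. Among wildtype UV-B arrays r ran from 0.979 to 0.984.

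The differences were mostly towards lower levels in uvr8-1. The limma test called 453 probe sets lower (1.99% of those tested) and 96 higher (0.422%) at an adjusted p under 0.05, and 2740 had an unadjusted p under 0.05. Counted by gene, 223 were lower (1.67%) and 53 higher (0.397%). The lower differences were also the larger ones. Of the 453, 280 were lower by at least 2-fold, 88 by at least 4-fold and 30 by at least 8-fold, with a median log2 difference of −1.17. Of the 96 higher probe sets 15 reached 2-fold, 2 reached 4-fold and 1 reached 8-fold, with a median of 0.66. In all, 549 probe sets were called (2.41%). The 3 arrays of uvr8-1 did not overlap those of wildtype for any called probe set, a pattern that 3411 probe sets (15%) showed. The median difference over all 13355 genes was 0.02. Without 1 array, the lower calls ran from 306 without wildtype replicate 2 to 626 without wildtype replicate 3. The higher calls depended more on single arrays, with 36, 44 and 258 without wildtype replicates 1, 2 and 3, and 59 and 63 without uvr8-1 replicates 2 and 3. With replicate number as a block there were 159 higher and 549 lower calls. Leaf RNA is a mixture of cell types, in which fewer cells of a type and less RNA per cell cannot be told apart.

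**Figure D1:**
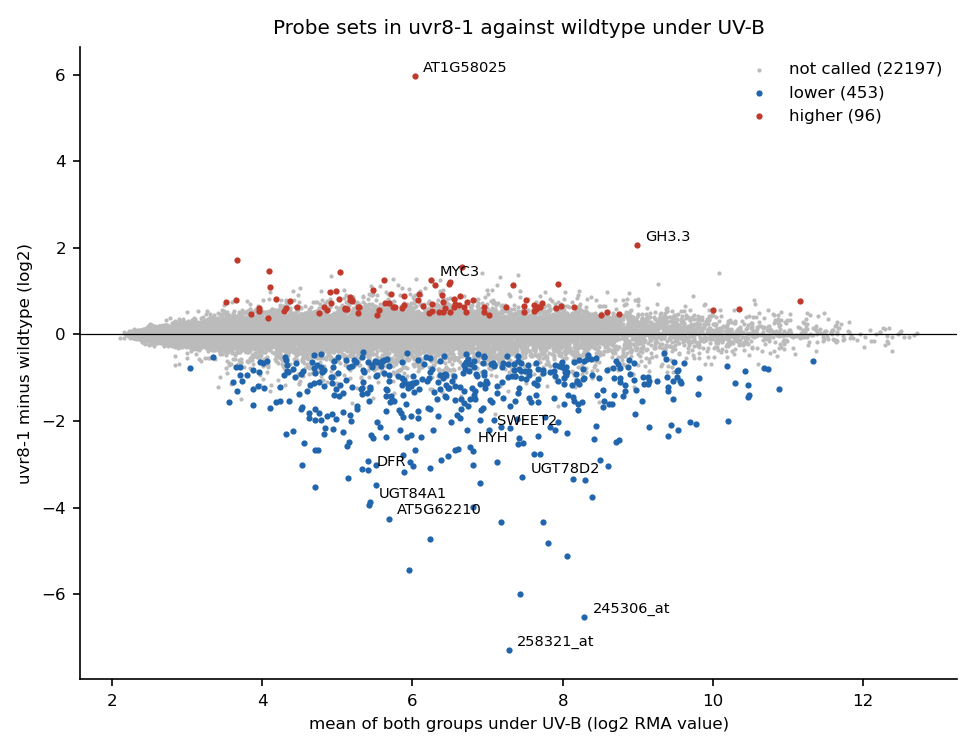
Difference in log2 level between uvr8-1 and wildtype under UV-B (vertical axis, mean of 3 arrays minus mean of 3 arrays) against the mean log2 level of the 6 arrays (horizontal axis), 1 point per probe set, with called probe sets coloured. The 453 lower calls reach −7.29 and the 96 higher calls reach 5.97, and most higher calls lie close to the zero line.

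Most measured genes of flavonoid synthesis were lower in uvr8-1, though the early steps were read through 1 gene. In the annotation, 10 of the 30 genes across the enzyme, glycosylation, anthocyanin and regulator lists had a single-gene probe set. Of these, 8 were lower and 0 higher (limma, and 8 and 0 at an unadjusted p under 0.05). The median log2 difference of the 10 genes was −1.83, against 0.02 over all genes. Of all genes, 1.67% were lower and 0.397% higher. The lists were chosen with earlier results of these data known. No regulator gene was measured. The single measured gene of the early enzyme list, CHIL, encodes a protein that aids the formation of chalcones, the first flavonoid skeletons. It read 6.90, 8.56 and 7.12 on the wildtype arrays and 4.68, 4.27 and 4.50 on the uvr8-1 arrays. The lowest wildtype array lay above all uvr8-1 arrays, and the difference was −3.04 ± 0.33 (SE; adjusted p = 0.000126), or 8.25-fold. The white light means of 4.88 in wildtype and 4.99 in uvr8-1 lay a little above the uvr8-1 level under UV-B.

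Flavonol glycosylation attaches the sugars that make flavonols soluble and storable in the vacuole. UGT78D2 adds glucose to flavonols and anthocyanins. Its values were 8.63, 9.72 and 8.96 in wildtype and 5.66, 5.99 and 5.81 in uvr8-1, so that the groups lay far apart. The difference was −3.29 ± 0.23 (adjusted p = 2.14e-06), or 9.76-fold. AT1G06000, the flavonol 7-O-rhamnosyltransferase, read 6.09, 8.03 and 6.97 in wildtype and 3.62, 4.53 and 3.88 in uvr8-1. The wildtype arrays spread widely (SD 0.97) but did not overlap those of uvr8-1, at a difference of −3.02 ± 0.40 (adjusted p = 0.000702). UGT78D1, which adds rhamnose to flavonols, had 6.39, 7.21 and 6.11 in wildtype and 5.03, 5.65 and 4.83 in uvr8-1. Here the gap between the groups was small next to their spread. The difference was −1.40 ± 0.29 (adjusted p = 0.02), and the call ended without uvr8-1 replicate 1 (0.071) or 3 (0.0903) and without wildtype replicate 2 (0.0892). Its white light means of 6.82 in wildtype and 6.56 in uvr8-1 lay near the wildtype UV-B arrays, and from there it fell under UV-B in uvr8-1 (−1.39, adjusted p = 0.00232) and was not called in wildtype (−0.25, adjusted p = 0.626). UGT78D3, an arabinosyltransferase, lay in the dimmest 40% of probe sets and was not called (−0.12, 95% interval −0.34 to 0.11).

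In the anthocyanin branch, which makes the red and purple pigments, 4 of 5 measured genes were lower. DFR, the reductase that commits flavonoids to this branch, read 6.62, 7.83 and 6.46 in wildtype and 3.86, 3.98 and 3.70 in uvr8-1. No array of a genotype came within 2 log2 units of the other genotype, and the difference was −3.12 ± 0.42 (adjusted p = 0.000702), or 8.7-fold. UF3GT, which adds a xylose to anthocyanins, read 5.48, 6.86 and 5.94 against 4.57, 4.12 and 4.02, a difference of −1.86 ± 0.31 (adjusted p = 0.00446). This call ended in a fit of only the 6 UV-B arrays with replicate number as a block (0.0634). AT4G14090, the anthocyanin 5-O-glucosyltransferase, read 5.05, 6.37 and 5.15 against 3.77, 3.89 and 3.49, a difference of −1.81 ± 0.33 (adjusted p = 0.00765). In both genes the groups were apart, with wildtype replicate 2 the highest array. AT5MAT, which adds a malonyl group to anthocyanins, had 3.63, 4.89 and 3.98 in wildtype and 3.15, 3.13 and 2.89 in uvr8-1. All but 2 of these values were below 3.74, the upper limit of the dimmest 40% of all probe sets. The difference of −1.11 ± 0.25 (adjusted p = 0.036) ended as a call without wildtype replicate 2 (0.0772) and without uvr8-1 replicates 1, 2 and 3 (0.0732, 0.0849 and 0.12), and in the paired fit of 6 arrays (0.0982). BAN, of proanthocyanidin synthesis in the seed coat, was dim and not called (0.18, 95% interval −0.12 to 0.48). Wildtype replicate 2 was the highest wildtype array for 8 of the 8 called flavonoid genes. In the 6 fits without 1 array, UGT78D1 and AT5MAT were the only ones of the 8 to lose a call. An unpaired fit of only the 6 UV-B arrays ended more calls. These were AT1G06000 (adjusted p = 0.0632), UF3GT (0.0976), AT4G14090 (0.109), UGT78D1 (0.184) and AT5MAT (0.265), while CHIL, UGT78D2 and DFR kept theirs.

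**Figure D2:**
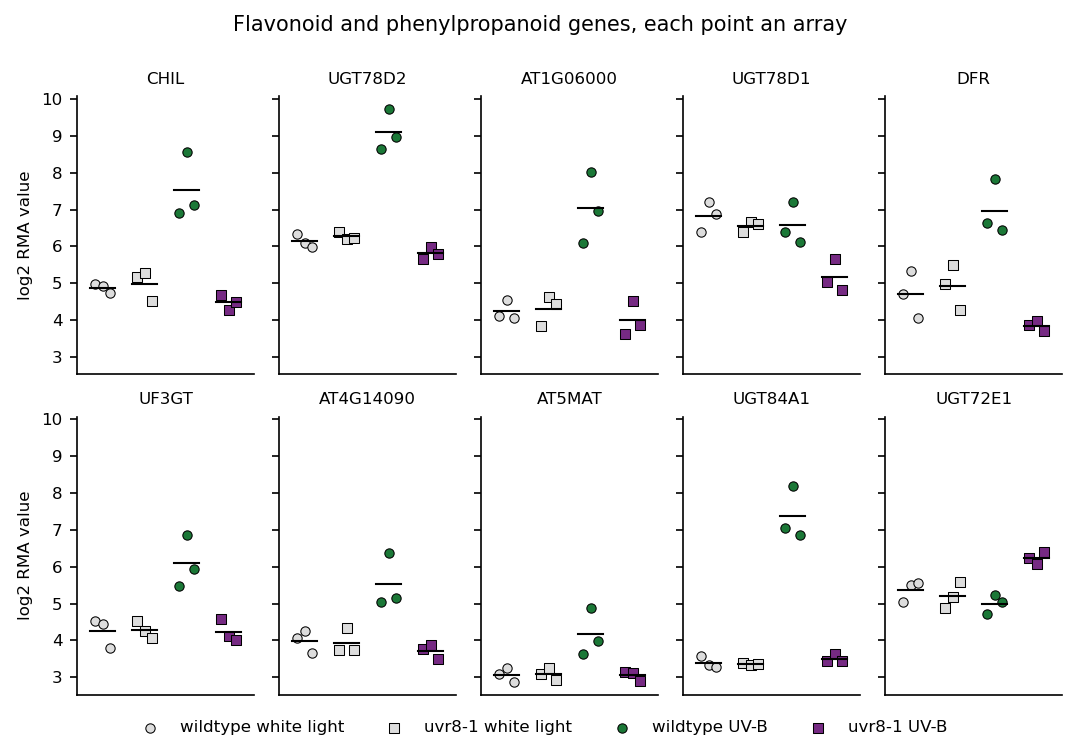
Log2 level on every array for 10 genes of flavonoid, anthocyanin and hydroxycinnamate metabolism in wildtype and uvr8-1, in white light and under UV-B (replicates 1 to 3 from left to right, bar at the mean). Under UV-B wildtype lies above uvr8-1 in each panel except UGT72E1, where uvr8-1 is higher, and for CHIL, UGT78D2 and DFR the uvr8-1 mean under UV-B lies below the white light means.

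The wider phenylpropanoid list holds the common precursor pathway, sinapate esters and lignin precursors. It had 7 of 23 genes measured, with 1 lower, 1 higher and a median of −0.26, where 1.67% of all genes were lower and 0.397% higher. UGT84A1, which makes glucose esters of hydroxycinnamates, had one of the largest differences in the comparison. It read 7.05, 8.18 and 6.87 in wildtype and 3.44, 3.63 and 3.44 in uvr8-1. The uvr8-1 arrays under UV-B lay next to the white light means of 3.40 in wildtype and 3.37 in uvr8-1. The difference was −3.86 ± 0.26 (adjusted p = 1.83e-06), or 14.6-fold. In contrast UGT72E1, which adds glucose to lignin precursors, was higher in uvr8-1. It read 4.71, 5.22 and 5.04 in wildtype and 6.25, 6.07 and 6.40 in uvr8-1, with groups apart, a difference of 1.25 ± 0.19 (adjusted p = 0.0019), or 2.38-fold. Its white light means of 5.37 and 5.21 lay between the means of the 2 UV-B groups. The related monolignol glucosyltransferases UGT72E2 (−0.13, 95% interval −0.51 to 0.25) and UGT72E3 (−0.07, −0.27 to 0.13) were not called. ALDH2C4, an aldehyde dehydrogenase that makes ferulate and sinapate, read 10.09, 10.55 and 10.29 in wildtype and 9.98, 9.49 and 9.42 in uvr8-1. Its difference of −0.68 ± 0.17 missed the threshold (adjusted p = 0.056), and passed it without uvr8-1 replicate 1 (0.0122). UGT84A3 (−0.40, adjusted p = 0.657) and HCT, an acyltransferase of lignin synthesis (−0.26, adjusted p = 0.795), were not called.

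The annotation gave only 3 of 27 listed genes of light and UV-B signalling a probe set of their own. All 3 were lower in uvr8-1 (median −2.92), where 1.67% of all genes were lower. HYH, the bZIP factor closest to HY5, read 7.58, 8.43 and 8.15 in wildtype and 4.48, 6.10 and 5.81 in uvr8-1. The groups did not overlap, but uvr8-1 replicate 1 lay well below replicates 2 and 3. The difference was −2.59 ± 0.45 (adjusted p = 0.00539), or 6.01-fold. Unlike the pigment genes, HYH in uvr8-1 under UV-B was 2.01 above its white light mean of 3.46 (adjusted p = 0.00344). The other 2 genes encode BIC1 (AT3G52740) and BIC2 (AT3G44450), small proteins that inhibit the cryptochromes, the blue light receptors. AT3G52740 read 5.88, 7.34 and 6.20 in wildtype and 3.11, 2.74 and 2.98 in uvr8-1. All uvr8-1 arrays were below the dim limit, and the difference was −3.52 ± 0.31 (adjusted p = 1.65e-05), or 11.5-fold. AT3G44450 read 6.60, 7.62 and 6.37 in wildtype and 4.13, 4.22 and 3.49 in uvr8-1, again apart, with a difference of −2.92 ± 0.46 (adjusted p = 0.00263). In hy5-1 under UV-B, the means were 7.45 for HYH, 5.06 for AT3G52740 and 6.66 for AT3G44450. Each lay between the means of uvr8-1 and wildtype. The hy5-1 arrays stood apart in the 3' to 5' index, at 2.43 to 3.04 against 1.77 to 1.97 in wildtype under UV-B (exact permutation p = 0.1, the smallest possible), and the part of this in the hy5-1 levels was not tested.

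The 15 genes with the largest differences towards lower levels ran from −4.25 to −2.59, with adjusted p from 3.2e-08 to 0.00539. They were chosen for these values. Besides the genes above they were AT5G62210, AT3G57020, AT5G42760, AT3G56290, AT5G35970, AT1G16260 and AT1G18660. AT5G62210 led the list, with 7.17, 8.63 and 7.64 in wildtype and 3.51, 3.46 and 3.71 in uvr8-1. Its 3 uvr8-1 values were below its white light means of 4.23 and 4.35, and the difference was −4.25 ± 0.30 (adjusted p = 2.52e-06). AT1G18660 had the smallest adjusted p (3.2e-08), at 9.02, 9.30 and 8.94 in wildtype and 6.06, 6.52 and 6.39 in uvr8-1. Its arrays were tight within each genotype, and the difference was −2.76 ± 0.12. AT3G57020 was expressed strongly in wildtype, at 10.06, 10.26 and 10.45 against 6.81, 6.26 and 6.46 in uvr8-1, a difference of −3.75 ± 0.30. Wildtype replicate 2 was the highest wildtype array for 13 of these 15 genes. Among equally numbered arrays the differences of the 15 genes ran from −5.17 to −2.22, a spread given as a description, since groups that do not overlap fix the sign.

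For 11 of the 15 the uvr8-1 mean under UV-B was below that of uvr8-1 in white light, and for 3 of them the test of that fall passed. AT3G56290 read 10.03, 10.57 and 9.31 in wildtype under UV-B and 6.24, 7.02 and 6.58 in uvr8-1. In uvr8-1 this was a fall of its mean from 7.57 to 6.61 (−0.95, adjusted p = 0.0145), while wildtype stood at 7.81 in white light. AT5G35970 was at 10.69, 10.24 and 9.44 in wildtype and 7.36, 7.06 and 6.85 in uvr8-1, where it fell by 1.68 from its white light mean of 8.76 (adjusted p = 0.00729). AT1G18660 fell by 0.58 in uvr8-1 (adjusted p = 0.00228). In wildtype the same 3 genes rose under UV-B, by 2.16 for AT3G56290, 1.38 for AT5G35970 and 2.05 for AT1G18660 (adjusted p = 4.42e-05, 0.0232 and 8.45e-08). HYH was the 1 gene of the 15 with a called rise in uvr8-1. The 15 were chosen by a difference that uses the same UV-B arrays. That choice favours low uvr8-1 and high wildtype values, so these falls and rises are given as a description. The share of such falls over all genes is not given here.

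Larger differences than these were found in probe sets that the annotation pairs with no single gene. Probe set 258321_at read 10.49, 11.39 and 10.90 in wildtype and 3.72, 3.67 and 3.52 in uvr8-1, next to white light means of 3.71 and 3.53. Probe set 245306_at read 11.76, 11.83 and 11.07 in wildtype and 5.14, 5.08 and 4.84 in uvr8-1. The uvr8-1 arrays of 258321_at stayed at the white light level, and the differences were −7.29 ± 0.23 (adjusted p = 2.26e-09) and −6.53 ± 0.24 (adjusted p = 6.19e-09). Of the 453 lower probe sets, 222 had no paired gene.

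GH3.3 and WES1, of auxin conjugation, were among the genes higher in uvr8-1. Of 5 measured auxin genes, 2 were higher and 0 lower, with a median of 0.75 and 1 lower at an unadjusted p under 0.05. Over all genes 0.397% were higher and 1.67% lower, and 5 genes are too few to describe the list. GH3.3 links the hormone auxin to amino acids, which lowers its active level. It read 8.05, 7.52 and 8.26 in wildtype and 10.42, 10.13 and 9.52 in uvr8-1. The lowest uvr8-1 array was above the highest wildtype array by more than 1 log2 unit, and the difference was 2.07 ± 0.21 (adjusted p = 6.6e-05), or 4.21-fold. Both genotypes were far above their white light means of 5.22 and 5.47. WES1, another auxin-amido synthetase (GH3.5), read 6.47, 6.94 and 6.88 in wildtype and 7.46, 8.06 and 8.18 in uvr8-1, a difference of 1.14 ± 0.24 (adjusted p = 0.0235). Its call ended without wildtype replicate 1 (0.111) or 2 (0.052) and without uvr8-1 replicate 2 (0.0949) or 3 (0.102). GH3.17, a further member of the family, had the opposite sign without a call (−0.77, 95% interval −1.34 to −0.21, adjusted p = 0.185), and was called lower without wildtype replicate 3 (0.0418). IAA29, an auxin response repressor (0.75, adjusted p = 0.422), and the dim GH3.1 (−0.04, adjusted p = 0.976) were not called.

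The 15 genes with the largest differences towards higher levels ran from 0.88 to 5.97, with adjusted p from 6.13e-08 to 0.0451. AT1G58025 stood alone at the top, at 3.04, 3.08 and 3.00 in wildtype and 9.03, 9.07 and 8.94 in uvr8-1. This difference of 5.97 ± 0.28 (adjusted p = 6.13e-08), or 62.8-fold, was also present in white light, with means of 3.10 and 8.23 (5.13, adjusted p = 2.55e-06). The mean in hy5-1 under UV-B was 3.33. MYC3, a bHLH factor of jasmonate signalling, read 5.49, 5.48 and 5.89 in wildtype and 6.64, 7.02 and 6.99 in uvr8-1, a difference of 1.26 ± 0.19 (adjusted p = 0.00182). UBP21, a ubiquitin-specific protease gene, read 5.48, 5.03 and 5.21 in wildtype and 6.20, 6.21 and 6.15 in uvr8-1, a difference of 0.95 ± 0.15 (adjusted p = 0.00349). For both, the white light means differed in the same direction, at 5.43 and 6.54 for MYC3 and 5.16 and 5.98 for UBP21, without a call there (adjusted p = 0.235 and 0.478). In hy5-1 under UV-B, UBP21 was also above wildtype (limma, 0.87, adjusted p = 0.00644), and MYC3 was not called (0.52, adjusted p = 0.11). The hy5-1 arrays have the higher 3' to 5' index. UBP21 lies 2 genes from MYC3 in the RefSeq gene order. Within 10 genes on either side of MYC3 these were the 2 called of 10 measured genes. AT5G46780, 2 genes from MYC3 on the other side, was at 0.99 ± 0.49 without a call (adjusted p = 0.466). Its differences in white light (1.15) and in hy5-1 under UV-B (1.55) were not called either. The other measured genes there lay between −0.05 and 0.31 under UV-B. Around AT1G58025 it was itself the 1 called of 6.

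Other genes of this group began from low levels or varied between the uvr8-1 arrays. AT2G29500, a small heat shock protein gene, read 3.38, 3.33 and 3.36 in wildtype and 5.24, 5.27 and 3.93 in uvr8-1. All wildtype arrays were below the dim limit and uvr8-1 replicate 3 lay far below the other two, at a difference of 1.46 ± 0.27 (adjusted p = 0.00805). The call ended without the number 1 arrays of both genotypes, an alternative chosen after seeing the data (adjusted p = 0.0899, in a range of 6.38e-06 to 0.195 over 16 alternatives), and in the paired fit of the 6 UV-B arrays (0.0766). The same kind of spread was seen in GSTU22, a glutathione transferase gene, at 3.59, 3.56 and 3.54 in wildtype and 4.68, 5.32 and 3.95 in uvr8-1. Its difference of 1.09 ± 0.24 (adjusted p = 0.0331) ended as a call without wildtype replicates 1, 2 and 3 (0.0921, 0.112 and 0.0601) and without uvr8-1 replicates 1 and 2 (0.0866 and 0.0728), and in the paired fit of 6 arrays (0.11). ALN, the allantoinase of purine breakdown, read 4.38, 4.46 and 4.61 in wildtype and 5.34, 5.82 and 5.27 in uvr8-1, a difference of 0.99 ± 0.19 (adjusted p = 0.0107). The call ended without wildtype replicate 1 (0.0508) and without uvr8-1 replicate 2 (0.0524). In uvr8-1 the ALN level under UV-B lay near the white light means of 5.23 and 5.27, and the wildtype level lay below them.

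The remaining genes of the 15 were AT1G12080 (1.44 ± 0.32), AT5G59080 (1.17 ± 0.25), AT5G10830 (1.04 ± 0.19), AT1G17500 (0.93 ± 0.21), AT3G03870 (0.91 ± 0.22) and AT2G19460 (0.88 ± 0.15). For AT5G10830 (adjusted p = 0.00739) and AT2G19460 (0.00488) no single array ended the call, but the unpaired fit of only the 6 UV-B arrays did (0.16 and 0.0842). AT1G12080 lost it without wildtype replicates 1, 2 and 3 (0.112, 0.0593 and 0.0601) and without uvr8-1 replicates 2 and 3 (0.112 and 0.104). AT1G17500 lost it without wildtype replicates 1 and 2 (0.14 and 0.081) and uvr8-1 replicates 2 and 3 (0.128 and 0.113). The same 4 arrays ended the call of AT3G03870 (0.14, 0.175, 0.146 and 0.0567) and of AT5G59080 (0.0685, 0.112, 0.102 and 0.0757). The paired fit of 6 arrays also ended that of AT3G03870 (0.106). Of probe sets with no paired gene, 254452_at (1.71 ± 0.20, adjusted p = 0.000249) and 263443_at (1.56 ± 0.24, adjusted p = 0.0026) were highest. The first was also higher in uvr8-1 in white light, at 4.83 against 2.82.

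**Figure D3:**
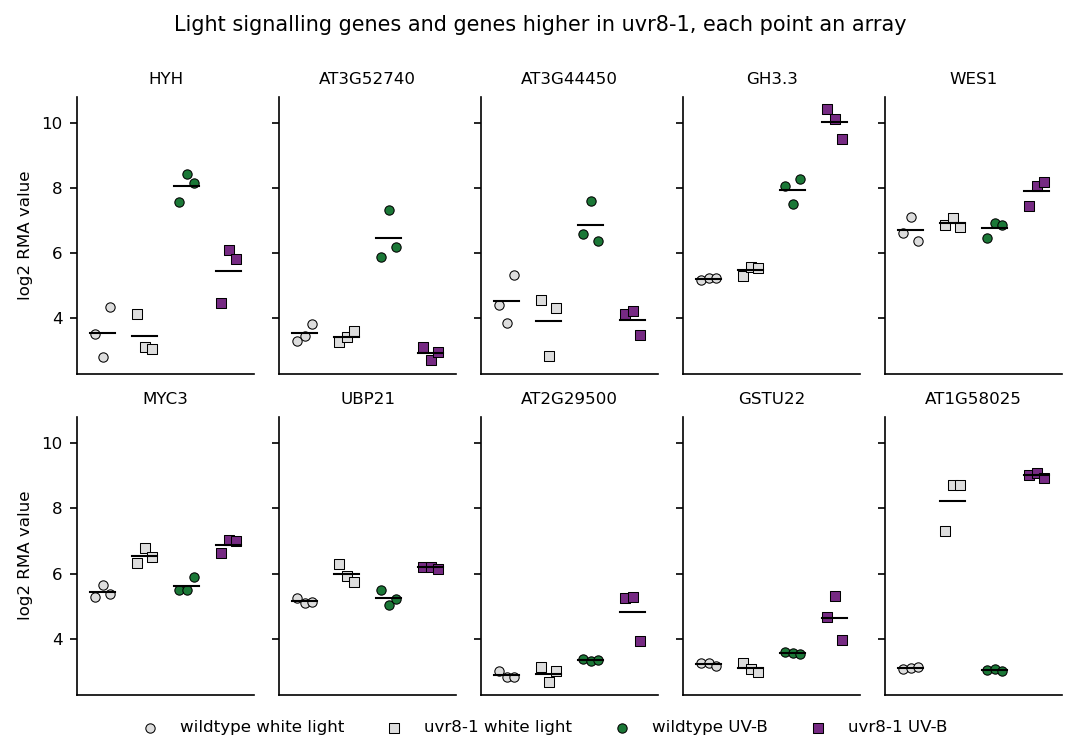
Log2 level on every array for 10 genes of light signalling, auxin conjugation and the group higher in uvr8-1, in wildtype and uvr8-1, in white light and under UV-B (replicates 1 to 3 from left to right, bar at the mean). HYH, AT3G52740 and AT3G44450 are lower in uvr8-1 under UV-B, GH3.3 and WES1 are higher, and AT1G58025, MYC3 and UBP21 are apart in the means of both light conditions.

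Whether the genotypes already differed before UV-B was read from the white light arrays, which are separate plants. In white light the 3' to 5' index was 2.18 ± 0.16 in uvr8-1 and 1.83 ± 0.04 in wildtype (SD, n = 3), without overlap (exact permutation p = 0.1, the smallest possible). There limma called 4 probe sets in all (0.0176% of those tested), and 4 of the 549 called under UV-B were called with the same sign in white light. They were AT1G58025, 254452_at and 248863_at, higher in uvr8-1, and 263001_at, lower in uvr8-1 by −1.32 under UV-B and −1.36 in white light. In hy5-1 under UV-B, 254452_at (4.22, 4.38 and 4.16) and 248863_at (8.28, 8.50 and 8.40) also lay above wildtype. Wildtype under UV-B read 2.65, 2.85 and 2.92 for the first and 7.39, 7.35 and 7.35 for the second. For AT1G58025 and 263001_at the hy5-1 arrays lay far from those of uvr8-1. Probe sets 248863_at and 263001_at were named after their values were seen. Of the 453 lower probe sets, 220 (48.6%) had a negative difference in white light, with a median white light difference of 0.004. Of the 96 higher probe sets, 65 (67.7%) had a positive one, with a median of 0.066. A same-sign difference at an unadjusted p under 0.05 in white light was found for 5 of the lower and 8 of the higher probe sets. The same shares over all probe sets are not given here, so these counts of sign and unadjusted p cannot be set against a background. The difference under UV-B was also tested against that in white light. This interaction was called for 195 probe sets in all (0.857%), among them 188 of the 453 lower and 5 of the 96 higher ones. These counts share the UV-B arrays with the calls they are counted in. Without wildtype UV-B replicate 3 the sum of 193 became 330. With the index as a further term in the fit it became 129, and the 4 calls shared with white light became 2.

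**Figure D4:**
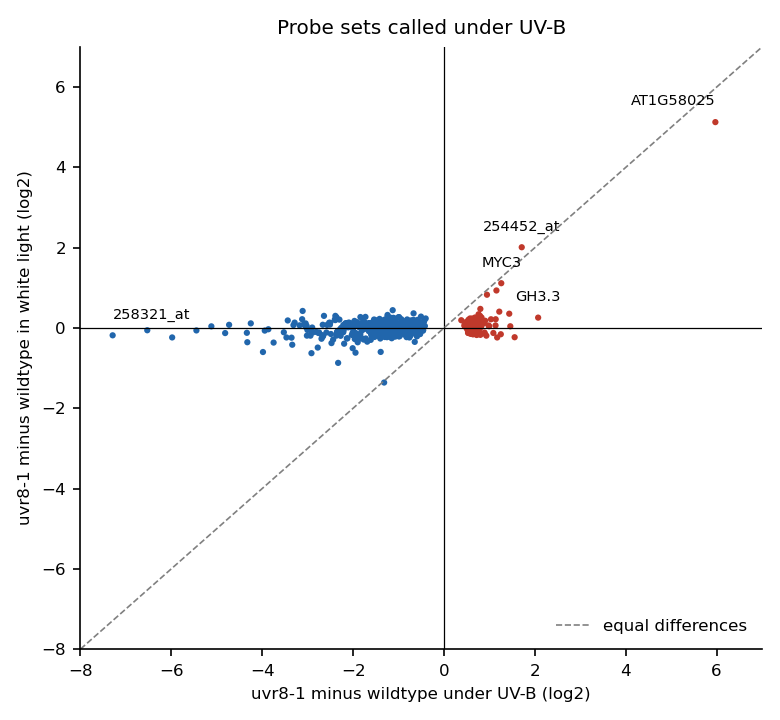
Log2 difference between uvr8-1 and wildtype under UV-B (horizontal axis) against that in white light (vertical axis) for the 549 called probe sets, 1 point each, with the diagonal of equal differences. Most points lie near zero in white light, and AT1G58025 and 254452_at lie near the diagonal.

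Among enzyme and wall families chosen by symbol, the UDP-glycosyltransferases had 5 lower and 1 higher of 47 genes, with a median of 0.00, where 1.67% of all genes were lower and 0.397% higher. The lower ones include 3 genes already counted in the lists above. The higher one was UGT72E1. Besides UGT84A1, UGT78D2 and UGT78D1, the lower ones were UGT73C1, which can add glucose to cytokinins, and UGT71C4 (−0.66). UGT71C4 lies outside the naming rule and is given to complete the count. UGT73C1 read 7.08, 7.74 and 7.34 in wildtype and 5.46, 6.19 and 6.07 in uvr8-1 (−1.48 ± 0.20, adjusted p = 0.000662). Its call ended in the unpaired fit of only the 6 UV-B arrays (0.0673). Both groups stood far above the white light means of 2.66 and 2.82. Of 14 glutathione transferases, which detoxify by conjugation, 2 were lower and 1 higher. GSTU28 read 5.73, 6.39 and 5.77 in wildtype and 4.56, 4.00 and 4.00 in uvr8-1 (−1.78 ± 0.22, adjusted p = 0.000346). GSTU18 was lower by a smaller amount (−0.96 ± 0.23, adjusted p = 0.0436). Its call ended without each of wildtype replicates 1 and 2 (0.154 and 0.173) and uvr8-1 replicates 1, 2 and 3 (0.129, 0.107 and 0.0822). GSTU25 read 5.69, 6.68 and 7.15 in wildtype and 7.49, 8.43 and 7.57 in uvr8-1, where the groups were apart without a call (1.32 ± 0.33, adjusted p = 0.0537). With the replicate block it was called (0.0453), as it was without wildtype replicate 3 (0.0107).

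SWEET2, a sugar transporter gene of the vacuole membrane, was the 1 lower gene of 15 whose symbol begins with SWEET. These include SWEETIE, which is not a transporter of that family. It read 8.04, 8.28 and 8.03 in wildtype and 5.71, 6.08 and 5.97 in uvr8-1, with tight groups far apart (−2.20 ± 0.28, adjusted p = 0.000433, or 4.59-fold). The white light means were 5.49 and 5.09, and hy5-1 under UV-B, whose arrays have the higher 3' to 5' index, stood at 8.01. SWEET13 was at −1.48 without a call (adjusted p = 0.197), and was called without wildtype replicate 3 (0.04). XTH32, an enzyme that remodels wall xyloglucan, was the 1 lower gene of 9 (−1.53 ± 0.28, adjusted p = 0.00726). Its values were 6.12, 7.27 and 6.18 in wildtype and 5.12, 5.16 and 4.70 in uvr8-1. The call ended in the unpaired fit of only the 6 UV-B arrays (0.138). The symbols of cytochromes P450 picked out 26 genes, but these also hold a cyclophilin, CYP59, so the set is mixed. In it 1 gene was higher, the dim P450 gene CYP71B24 (0.76 ± 0.13, adjusted p = 0.00544), at 3.26, 3.07 and 3.10 against 4.07, 3.61 and 4.04. This call too ended in that fit (0.109).

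Stress, defence and photosynthesis lists were short, against shares of 1.67% lower and 0.397% higher over all genes. At this size a count of 0 cannot be told apart from those shares. A list with 1 call stands above them through that gene alone, which is too little to describe the list. One of 6 heat shock genes (AT2G29500), 1 of 4 jasmonate genes (MYC3) and 1 of 4 oxidative stress genes (GSTU22) were higher and none lower, with medians of 0.13, 0.12 and 0.74. No call was made by limma among 18 expansins, 6 WRKY factors, 7 calmodulin-like genes, 9 U-box genes and 69 chloroplast-encoded genes, which had medians of 0.05, 0.03, 0.06, 0.06 and 0.11. At an unadjusted p under 0.05 the counts in these families were 2 higher expansins, 1 higher and 1 lower U-box gene and 0 in the others. PUB22, a ubiquitin ligase gene of the U-box family, was at −1.34 (adjusted p = 0.157), and was called only in a fit of the 6 UV-B arrays with the replicate block (0.00628). The list of salicylate and pathogen response (3 measured), of glucosinolate and tryptophan synthesis (4), of nuclear photosynthesis genes (5) and of DNA repair (2) had 0 calls each. At an unadjusted p under 0.05, 1 photosynthesis gene, LHCB4.2 (0.77, adjusted p = 0.272), and 1 repair gene, ATLIG4 (0.57, adjusted p = 0.176), had positive differences, and ATLIG4 was called without wildtype replicate 3 (0.0438). The clock gene GI was at −0.69 without a call, and at −1.22 with one without uvr8-1 replicate 1 (adjusted p = 0.0416). The annotation paired no gene of the photoprotection list with a probe set of its own.

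The 4 measured reference genes had differences from 0.09 to 0.17, with 0 calls and 0 at an unadjusted p under 0.05. Of the marker lists of other cell types and organs, only 1 gene each of epidermis and guard cells (FMA, −0.26) and of root (PYK10, −0.18) was measured and neither was called, and no flower or seed marker was measured. These lists are too short to compare the makeup of the leaf samples. By chromosome, the share of measured genes called lower ran from 1.29% to 1.84% over chromosomes 1 to 5, and the share called higher from 0.26% to 0.47%.

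**Figure D5:**
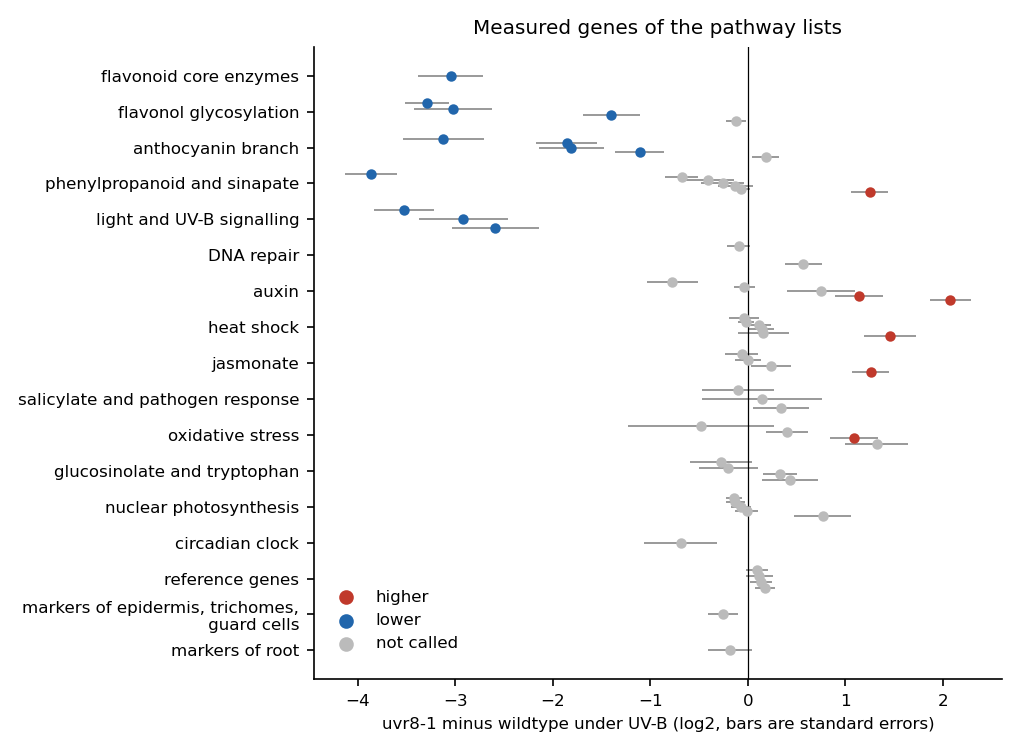
Log2 difference between uvr8-1 and wildtype under UV-B for each measured gene of the lists, with bars of 1 standard error and called genes coloured, grouped by list. The called genes of the flavonoid, anthocyanin and light signalling lists lie between −3.52 and −1.11, while most genes of the stress, defence and photosynthesis lists lie near zero.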

How the data were processed

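Leaf RNA was hybridised to 1-colour Affymetrix ATH1 arrays. The deposited values are log2 levels made by the authors with RMA, per the submitters' processing notes. RMA brings all arrays to a common distribution, so a shift shared by most genes would be reduced. The sources used here do not give its version, background step or run. Groups came from the labels. The 64 control probe sets were left out. The annotation paired 503 of the remaining probe sets with several genes and 8730 with none. Symbols were taken from RefSeq's gene table (TAIR10.1), where 13436 of 13513 single-gene probe sets found their locus. No array genome build is named, so no coordinates are given.

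With limma 3.58.1 in R 4.3.3, group means were estimated from all 15 arrays together (10 residual and 3.09 prior degrees of freedom). Tests were two-sided, with Benjamini-Hochberg adjustment over 22746 probe sets and a threshold of 0.05. The value after ± is the standard error of the log2 difference, or the SD where so named, n is 3 per group, and this number limits the precision. Intervals are those of the model. A fold is 2 to the power of the log2 difference and is not exact for dim probe sets. Whether replicates came from separate growth batches is not stated, so p-values measure the spread between these samples. The procedure was tested on simulated data.

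The printed tests are unpaired, and the replicate number was added as a block in an alternative. The numbers do pair the samples. Deviations from the group means of equally numbered wildtype and uvr8-1 arrays under UV-B correlated with r = 0.68, 0.53 and 0.45 over probe sets, and in white light with 0.64, 0.66 and 0.48.

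The comparison and the gene lists were chosen with earlier results of these data known. Named were the 15 largest called differences in each direction with groups apart, all measured members of the flavonoid, phenylpropanoid, light, photoprotection and auxin lists, up to 4 members with the smallest p of each other list or family, and the 2 largest differences in each direction of probe sets with no single gene. A gene was represented by its brightest single-gene probe set. The 17 alternatives comprised the replicate block in all 15 and in 6 arrays, fits of fewer groups, 2 further normalisations, a filter on dim probe sets, an intensity trend, adjustment for the 3' to 5' index, a 2-fold minimum, each UV-B array left out, and both number 1 arrays left out. The last was chosen after seeing the data. Tables and plots were made with Python 3.11.15, pandas 2.3.3, numpy 2.4.6, scipy 1.17.1 and matplotlib 3.10.9.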

Additional observations from a re-analysis of the deposited data

Results flagged for a closer look

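For 20 of the named genes and probe sets called under UV-B, the difference between uvr8-1 and wildtype under UV-B also differed from that in white light by the interaction test of limma (adjusted p from 2.7e-07 to 0.0267). Values below are this difference of differences on the log2 scale. The 2 probe sets without a paired gene were the most negative, 258321_at at −7.11 and 245306_at at −6.47. Of pigment and hydroxycinnamate genes, UGT84A1 was at −3.83, UGT78D2 at −3.42, DFR at −3.34, CHIL at −3.16 and AT1G06000 at −3.07. The BIC1 gene AT3G52740 was at −3.42. AT5G62210 was at −4.37, AT3G57020 at −3.39, AT5G42760 at −3.23, AT3G56290 at −3.11, AT5G35970 at −3.05, AT1G18660 at −2.64 and AT1G16260 at −2.29. GSTU28 was at −1.94 and UGT73C1 at −1.64. Positive values were found for UGT72E1 (1.41), 263443_at (1.79) and GH3.3 (1.81).

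The interaction could be computed under 15 distinct alternatives. Its call ended in 7 of them for AT5G35970, 6 for UGT72E1, 6 for 263443_at, 5 for AT1G16260, 3 for AT1G06000 and 2 for AT5G42760, with adjusted p up to 0.104, 0.116, 0.104, 0.108, 0.0594 and 0.0814. After adjustment for the 3' to 5' index all 6 lost the call. It held under all 15 for the other 14. Without single UV-B arrays, AT5G35970 lost the call for wildtype replicates 1 and 2 (0.0685 and 0.0828) and uvr8-1 replicates 2 and 3 (0.0707 and 0.0808). UGT72E1 lost it for wildtype replicate 1 (0.0575) and uvr8-1 replicates 1 and 3 (0.0519 and 0.0729). For 263443_at these were wildtype replicates 1 and 2 (0.0712 and 0.0759) and uvr8-1 replicate 3 (0.0758). For AT1G16260 they were wildtype replicate 2 (0.071) and uvr8-1 replicates 1 and 2 (0.0531 and 0.066), and for AT1G06000 uvr8-1 replicates 1 and 3 (0.0519 and 0.0594).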

How the results depend on the processing

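The 453 lower calls became 196 in a fit of only the 6 arrays compared and 280 with a 2-fold minimum. Without single arrays they ran from 306 to 626. The 96 higher calls became 17 in the fit of 6 arrays, 159 with the replicate block, 61 with an intensity trend, 15 with a 2-fold minimum and 44 without the number 1 arrays of both genotypes, and ran from 36 to 258 without single arrays. The replicate block in the 6 arrays alone gave 86 higher and 385 lower calls. Of the 4 calls shared with white light, 2 held after adjustment for the 3' to 5' index. The 193 calls with an interaction ran from 140 to 330 without single arrays, and were 129 after that adjustment and 138 in the fit of only the groups compared. The share of higher calls, 17.5%, was 7.98% in the fit of 6 arrays and 5.08% with a 2-fold minimum, 22.5% with the replicate block, and 8.85% and 29.2% when wildtype replicate 1 or 3 was left out. Apart from the fewer samples or the added fold minimum that these settings bring, the cause was not tested.

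Of 111 named genes and probe sets 44 were called, of which 23 kept the call in all 17 alternatives. The other 21 lost it in at least 1, 19 of them in the fit of 6 arrays, such as HYH (adjusted p = 0.0726, in a range of 0.00217 to 0.0726). No called difference changed sign, and 8 uncalled ones were called in some alternative. The replicate block in all 15 arrays ended 0 named calls and changed no other named call than GSTU25. In the 6 arrays alone it ended those of AT2G29500, AT3G03870, AT5MAT, GSTU22 and UF3GT. Values below 3.74 lie among the dimmest 40% and give differences that may be compressed.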

Other observations

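The genes below were picked from the called genes after their values were seen and lie outside the naming rule. Genes of 2 subunits of succinate dehydrogenase, the enzyme that links the citric acid cycle to mitochondrial respiration, were lower in uvr8-1 under UV-B. SDH1-1 read 9.41, 9.36 and 9.34 in wildtype and 7.93, 7.67 and 7.51 in uvr8-1 (−1.67 ± 0.16, adjusted p = 4.2e-05). SDH2-1 read 10.25, 10.65 and 10.57 in wildtype and 8.27, 8.41 and 8.51 in uvr8-1 (−2.10 ± 0.12, adjusted p = 5.32e-07). The groups were far apart in both, and both calls held in all 17 alternatives. Their paralogues SDH1-2 (−0.08, adjusted p = 0.954) and SDH2-2 (0.23, adjusted p = 0.786) were not called. SDH1-2 was dim, with means under UV-B of 2.87 in wildtype and 2.80 in uvr8-1, so a difference could hardly be seen there. The difference between paralogues was not tested.

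The genes that follow were also lower and were picked singly. They stand for no group, since the oxidative stress, nuclear photosynthesis and chloroplast-encoded lists held 0 lower genes of 4, 5 and 69 (limma, and 0 at an unadjusted p under 0.05). VTC4, also of ascorbate synthesis, was not called. SPPA, a light-induced protease of the chloroplast, read 8.75, 9.06 and 8.37 in wildtype and 6.31, 6.17 and 6.18 in uvr8-1 (−2.50 ± 0.16, adjusted p = 7.91e-07). MSRB6, a methionine sulfoxide reductase that repairs oxidised proteins, read 7.23, 6.70 and 5.89 in wildtype and 4.24, 4.17 and 4.42 in uvr8-1 (−2.33 ± 0.32, adjusted p = 0.000846). It was the 1 called of 5 measured genes of its family, and for both genes the arrays were apart. AFR, an F-box protein of far-red light signalling, read 6.51, 7.03 and 6.05 in wildtype and 4.60, 4.37 and 4.58 in uvr8-1 (−2.01 ± 0.28, adjusted p = 0.000885). GME, an epimerase of ascorbate synthesis, had a smaller but tight difference, at 9.64, 9.65 and 9.58 in wildtype and 8.68, 8.59 and 8.66 in uvr8-1 (−0.98 ± 0.10, adjusted p = 7.98e-05). The plastid dehydrogenase gene NDC1 was at −1.15 ± 0.15 (adjusted p = 0.000707). RALFL32, which encodes a small signalling peptide, read 6.44, 7.30 and 6.73 in wildtype and 5.37, 4.93 and 4.45 in uvr8-1 (−1.91 ± 0.27, adjusted p = 0.00104). Of 11 measured RALF-like genes 2 were lower and 0 higher, where 1.67% of all genes were lower. The other was RALFL24 (−0.97, adjusted p = 0.0455), whose call ended in 11 of the 17 alternatives. The calls of SPPA, MSRB6, AFR and NDC1 held in all 17 alternatives. That of RALFL32 ended in the fit of 6 arrays (adjusted p = 0.0524, in a range of 0.000453 to 0.0524), and GME did not reach a 2-fold difference. In white light MSRB6 was at −0.87 and AFR at −0.50, without calls there. The interaction test of limma was not called for MSRB6 (adjusted p = 0.299), AFR (0.142) and NDC1 (0.0559). It was called for SPPA (4.04e-05), GME (0.00339) and RALFL32 (0.0198).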
